A study of Mus musculus with 39 samples.

Results

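Toll-like receptors were read out in bulk RNA of kidney, liver, lung and skin from male Prf1-/- mice, through their 10 genes Tlr1 to Tlr9 and Tlr13. The genes were picked by symbol from the 24537 genes counted in kidney, liver and lung and the 52508 genes counted in skin, and all 10 were found in both tables. All mice carried the same genotype, C57BL/6 mice without perforin, the pore-forming protein of cytotoxic lymphocytes, and no wild-type mouse was among the 39 libraries. Young mice were 3 months old and untreated, while vehicle and ABT-737 mice were 20 months old and had been injected intraperitoneally on 2 consecutive days a month for 2 months, starting at 18 months of age. ABT-737, which inhibits BCL-2 and related survival proteins, was given at 25 mg/kg. Each tissue had 4 young libraries (3 in skin), 3 vehicle libraries and 3 ABT-737 libraries. Because the young mice were not injected, age and vehicle injection cannot be told apart in the comparison of vehicle with young mice.

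Toll-like receptors are membrane receptors of innate immunity that recognise molecules of microbes and of damaged cells. TLR1, TLR2, TLR4, TLR5 and TLR6 sit at the cell surface, where TLR2 pairs with TLR1 or TLR6 to bind lipopeptides, TLR4 senses lipopolysaccharide and TLR5 senses flagellin. TLR3, TLR7, TLR8, TLR9 and TLR13 act in endosomes on nucleic acids, with TLR3 sensing double-stranded RNA, TLR7 and TLR8 single-stranded RNA, TLR9 unmethylated CpG DNA and TLR13 bacterial ribosomal RNA. Except for TLR3 they signal through the adaptor MyD88 to NF-kappaB and interferon regulatory factors, and macrophages, dendritic cells and neutrophils are among the cells richest in them.

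Positions are given in mm10, the build named in the submitters' processing notes. Tlr1 (chr5:64924680-64932699, minus strand) and its close paralog Tlr6 (chr5:64953095-64960034, minus strand) are neighbours, as are Tlr7 (chrX:167304926-167330571, minus strand) and Tlr8 (chrX:167241123-167264329, minus strand). Tlr2 (chr3:83836272-83841608, minus strand), Tlr9 (chr9:106222598-106226876, plus strand) and Tlr13 (chrX:106143275-106160493, plus strand) each stand alone at their locus in the GENCODE annotation, with no other gene inside the counted span. Tlr4 lies at chr4:66827551-66846581 (plus strand) and Tlr5 at chr1:182954788-182976044 (plus strand). For Tlr1, Tlr2, Tlr9 and Tlr13, the receptors on which the results below turn, the 250 bases directly before the transcription start are printed 5′ to 3′ on the strand of the gene, from RefSeq (GRCm38.p6). Capitals mark matches to 2 motifs searched on both strands, the PU.1 core GAGGAA and the AP-1 site TGANTCA.
Tlr1 (chr5:64932700-64932949, minus strand): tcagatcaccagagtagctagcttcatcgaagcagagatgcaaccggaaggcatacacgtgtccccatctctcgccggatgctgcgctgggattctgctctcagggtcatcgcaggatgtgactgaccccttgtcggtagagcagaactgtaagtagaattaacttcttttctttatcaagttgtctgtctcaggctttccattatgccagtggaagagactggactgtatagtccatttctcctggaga
Tlr2 (chr3:83841609-83841858, minus strand): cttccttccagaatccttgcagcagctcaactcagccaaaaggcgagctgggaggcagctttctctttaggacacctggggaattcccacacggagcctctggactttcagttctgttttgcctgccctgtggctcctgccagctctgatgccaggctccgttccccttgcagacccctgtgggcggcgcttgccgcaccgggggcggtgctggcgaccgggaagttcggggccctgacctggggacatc
Tlr9 (chr9:106222348-106222597, plus strand): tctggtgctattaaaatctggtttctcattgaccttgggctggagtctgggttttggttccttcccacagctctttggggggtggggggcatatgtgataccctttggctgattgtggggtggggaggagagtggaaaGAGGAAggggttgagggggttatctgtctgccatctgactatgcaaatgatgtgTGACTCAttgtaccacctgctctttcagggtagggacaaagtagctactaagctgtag
Tlr13 (chrX:106143025-106143274, plus strand): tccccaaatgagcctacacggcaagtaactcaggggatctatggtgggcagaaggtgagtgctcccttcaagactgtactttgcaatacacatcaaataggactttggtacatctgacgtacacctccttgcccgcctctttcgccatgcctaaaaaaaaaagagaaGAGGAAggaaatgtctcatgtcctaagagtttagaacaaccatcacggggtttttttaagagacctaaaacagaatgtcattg
The PU.1 core stood from 112 to 107 bases before the start in Tlr9 and from 83 to 78 bases before it in Tlr13, and the AP-1 site from 58 to 52 bases before the start in Tlr9. No match to either motif lay in the printed Tlr1 and Tlr2 windows. RefSeq gives Tlr1 a second start at base 64933558, outside the counted span, whose window holds a PU.1 core 23 to 18 bases before it. Of the other motifs, the 4 printed windows held no match to the strings searched for a C/EBP site (TTGCNNAA), a kappaB-like site (GGNNTTTCC) or an interferon-stimulated response element (ISRE) core. Other forms of these sites were not searched for. The letters gggaattcc in the Tlr2 window differ from the kappaB-like string only by an a in place of a T. Among 32851 windows of the same length in the RefSeq table, 23.3% held the PU.1 core, 6.75% the AP-1 site, 9.56% the C/EBP site, 4.93% the kappaB-like site and 2.98% the ISRE core. These matches describe the letters of the windows and were not tested for binding.

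The receptors were counted sparsely, most often in lung and skin and least in liver. Summed over the 10 genes, a lung library held between 28 and 423 counts, a skin library between 5 and 290, a kidney library between 3 and 47 and a liver library between 0 and 16. A gene was taken as detected where a library held more than 3 counts. By that measure 7 receptors were seen in at least 1 lung library, 9 in skin, 5 in kidney and 2 in liver. Tlr2 and Tlr4 were above 3 counts in all 10 lung libraries, and no receptor reached that in every library of another tissue.

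Tlr3 did not exceed 3 counts in any of the 39 libraries. Tlr7 was at 0 in all kidney and liver libraries, at 0 to 2 counts in lung and at up to 9 in skin. Tlr9 was at 0 in all kidney and liver libraries and reached 3 counts in 1 lung library, against up to 66 counts in skin. Tlr5 exceeded 3 counts in 2 lung libraries, both from ABT-737 mice, in 4 skin libraries and in no kidney or liver library. Tlr6 did so in 5 lung and 3 skin libraries. A count at or under 3 does not show that a receptor was absent, since 3 counts stood for 0.778 to 3.16 CPM (a gene's count scaled to a common library size by TMM) in kidney, lung and skin libraries and for 3.51 to 13.1 CPM in liver libraries. The regions counted also differ between the tables. In the skin table most receptor regions run about 2000 bases past the 3′ end used for the other tissues, whereas those of Tlr3 and Tlr4 stop 5198 and 1781 bases short of it, so levels were not compared between skin and the other tissues.

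**Figure D1:**
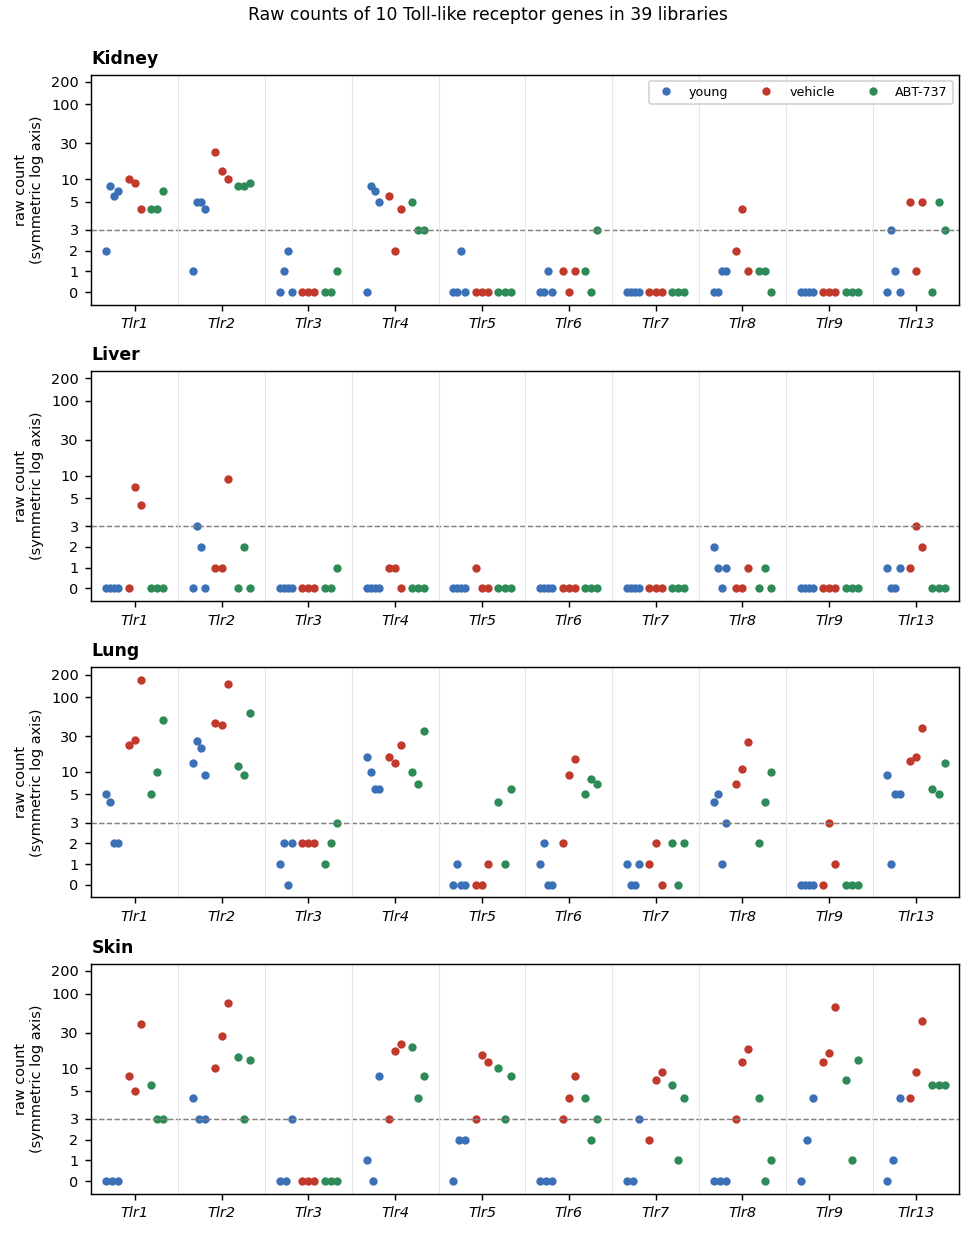
Raw counts of the 10 receptor genes on a symmetric log axis, with 1 panel per tissue, 1 point per library and colours for young, vehicle and ABT-737 mice, and a dashed line at 3 counts. Lung and skin hold the highest points, 168 counts of Tlr1 and 74 of Tlr2, both in vehicle replicate 5, and liver has 3 points above the line.

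Libraries held 1431814 to 3513311 counts in kidney, 223957 to 891116 in liver, 1046508 to 2600092 in lung and 1493411 to 3842808 in skin. The 6 markers of each organ's own cells (for instance Umod in kidney, Alb in liver, Sftpc in lung and Krt14 in skin) were all present and summed to at least 9669 CPM in every kidney library, 42550 in liver, 28050 in lung and 10060 in skin. Some libraries stood apart in markers of blood cells. Vehicle replicate 5 of lung held 1077 CPM of summed T cell markers, against 310.5 and 335.8 CPM in the other vehicle lungs, and only 362.1 CPM of endothelial markers, against 834.4 and 1266 CPM. ABT-737 replicate 5 of lung held 333.8 CPM of Ptprc, the CD45 antigen of leukocytes, against 67.6 and 55.8 CPM in the other treated lungs. Vehicle replicate 5 of skin held 395.1 CPM of neutrophil markers, against 12.7 and 41.3 CPM in the other vehicle skins. Receptor values without these libraries are given where they moved. Vehicle replicate 4 also stood apart in B cell markers. In kidney it held 125.9 CPM of them, against 10.2 and 11.7 CPM in the other vehicle kidneys. In liver it held 147.5 CPM, against 34.9 and 18.0 CPM in the other vehicle livers.

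In lung, Tlr1, Tlr2 and Tlr13 were higher in vehicle than in young mice, while Tlr4 was not called. Tlr1, the partner of TLR2 for triacylated lipopeptides, had 5, 4, 2 and 2 counts in the young lungs, 23, 27 and 168 in the vehicle lungs and 5, 10 and 50 in the ABT-737 lungs. In the vehicle lungs every value lay above every young value, with the highest in replicate 5. Here and below, the share of all genes without overlap between groups is not given. Such separation is therefore not read as particular to the receptors. Its mean was 1.84 ± 0.908 CPM (SD, n = 4) in young and 29.9 ± 28.5 CPM (SD, n = 3) in vehicle mice, a 16.3-fold increase (log2 fold change 4.02, SE 0.73, adjusted p = 0.00442 in edgeR's quasi-likelihood test, Benjamini-Hochberg adjusted over all genes tested). Leaving out any 1 of the 10 lung libraries kept this call, although without vehicle replicate 5 the log2 fold change was 2.85.

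Tlr2 had 13, 26, 21 and 9 counts in young lungs, 45, 43 and 149 in vehicle lungs and 12, 9 and 62 in ABT-737 lungs. On the CPM scale the lowest vehicle lung, at 18.4, lay just above the highest young lung, at 18.1. Its mean rose 3.51-fold, from 10.1 ± 6.02 to 34.8 ± 19.1 CPM (log2 fold change 1.81, SE 0.52, edgeR adjusted p = 0.0349). Tlr13, the endosomal receptor for bacterial ribosomal RNA, had 9, 1, 5 and 5 counts in young lungs, 14, 16 and 39 in vehicle lungs and 6, 5 and 13 in ABT-737 lungs, and again no vehicle lung overlapped the young lungs. Its mean rose 3.76-fold, from 2.61 ± 1.52 to 10.3 ± 3.94 CPM (log2 fold change 1.91, SE 0.48, edgeR adjusted p = 0.0185). Tlr4 had 16, 10, 6 and 6 counts in young and 16, 13 and 23 in vehicle lungs, which overlapped, and its log2 fold change of 0.63 (SE 0.47) had an adjusted p of 0.399 in the same edgeR fit. The 3 called receptors stood against 12.9% of the 11949 lung genes tested called in either direction and 8.15% called higher in vehicle.

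The calls of Tlr2 and Tlr13 in lung depended on single libraries. The edgeR adjusted p of Tlr2 was 0.238 without vehicle replicate 5, 0.106 without young replicate 1, 0.105 without young replicate 4, 0.0772 without young replicate 3 and 0.0583 without vehicle replicate 3, and that of Tlr13 was 0.146 without vehicle replicate 5, 0.0543 without young replicate 3 and 0.0527 without young replicate 4. When replicate number was added as a block (young and vehicle lungs share 2 numbers), Tlr1 was still called (adjusted p = 0.0183), but Tlr2 (0.0896) and Tlr13 (0.176) were not. No label pairs young with vehicle mice, so these block values are given only as an alternative fit. Tlr1 and Tlr13 had entered the lung test through the older mice, since no young lung reached the minimum of 5.18 set by edgeR's filter (in CPM before TMM scaling), whereas 3 young lungs did so for Tlr2 and 2 for Tlr4.

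The other receptors stayed under the filter in lung. Tlr8, an endosomal receptor, had 4, 5, 1 and 3 counts in young, 7, 11 and 25 in vehicle and 2, 4 and 10 in ABT-737 lungs. Tlr6, the TLR2 partner for diacylated lipopeptides, had 1, 2, 0 and 0 counts in young, 2, 9 and 15 in vehicle and 5, 8 and 7 in ABT-737 lungs. The vehicle lungs exceeded the young lungs in all libraries for Tlr8, whereas for Tlr6 the lowest vehicle lung, at 1.34 CPM, lay below the highest young lung, at 1.39 CPM. When all genes with at least 1 count were tested, Tlr6 was called higher in vehicle than in young lungs (adjusted p = 0.0273 in edgeR), beside 10.6% of 17620 genes called.

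**Figure D2:**
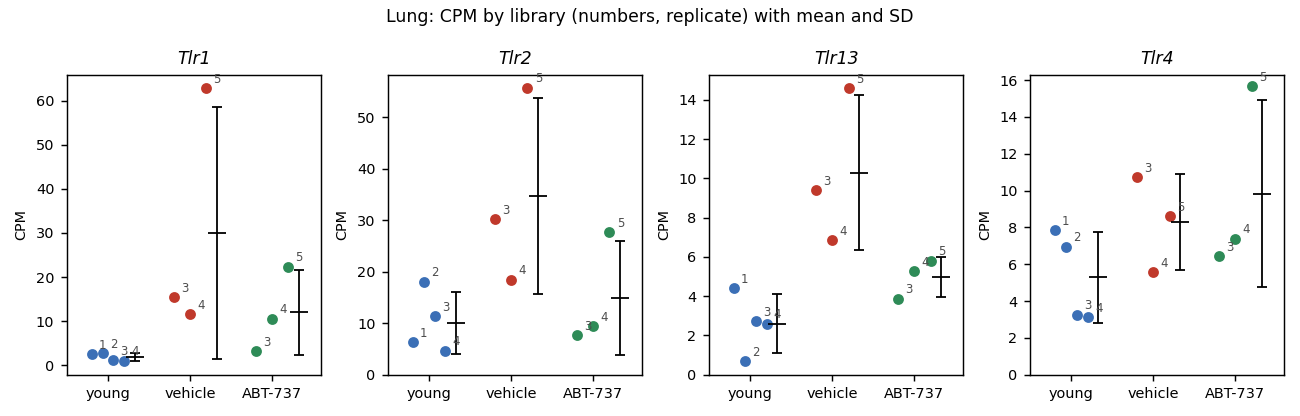
CPM of Tlr1, Tlr2, Tlr13 and Tlr4 in each lung library (points numbered by replicate) with dashes and bars for the mean and SD of each group, on a separate linear axis for each gene. Vehicle replicate 5 is the highest vehicle lung for Tlr1, Tlr2 and Tlr13, and for Tlr4 the highest library is ABT-737 replicate 5 at 15.7 CPM.

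In kidney Tlr2 was the only receptor counted often enough to be tested, and it was higher in vehicle than in young mice. It had 1, 5, 5 and 4 counts in young kidneys, 23, 13 and 10 in vehicle kidneys and 8, 8 and 9 in ABT-737 kidneys. The 3 groups did not overlap in CPM, with the vehicle kidneys highest and the young kidneys lowest. The mean rose 5.59-fold, from 1.28 ± 0.602 CPM (SD, n = 4) to 7.54 ± 2.46 CPM (SD, n = 3), or by 2.48 on the log2 scale (SE 0.40, edgeR adjusted p = 0.000665). Here 13.3% of the 11123 genes tested were called in either direction and 7.75% were called higher. The call held whichever 1 of the 10 kidney libraries was left out (largest adjusted p = 0.00504). With the replicate block the adjusted p was 0.0399. No label pairs young with vehicle mice, and same-numbered vehicle and ABT-737 kidneys did not deviate together (correlations of -0.21 to 0.020). The block value is therefore given only as an alternative fit. Only the 3 vehicle kidneys reached the filter's minimum of 4.60 for Tlr2 in CPM before TMM scaling.

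Tlr1 and Tlr4 were detected in kidney without separating the groups. Tlr1 had 2, 8, 6 and 7 counts in young, 10, 9 and 4 in vehicle and 4, 4 and 7 in ABT-737 kidneys, and Tlr4 had 0, 8, 7 and 5 counts in young, 6, 2 and 4 in vehicle and 5, 3 and 3 in ABT-737 kidneys. Tlr13 exceeded 3 counts in 2 vehicle kidneys and 1 ABT-737 kidney and in no young kidney, and Tlr8 in 1 vehicle kidney.

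In skin Tlr2 was higher in vehicle than in young mice, and Tlr9 stood close to the threshold. Tlr2 had 4, 3 and 3 counts in young skins, 10, 27 and 74 in vehicle skins and 14, 3 and 13 in ABT-737 skins. Every vehicle skin lay above every young and every ABT-737 skin in CPM, with replicate 5 the highest. The mean rose 5.97-fold, from 2.0 ± 0.80 to 11.5 ± 8.17 CPM (SD, n = 3 each), or by 2.58 on the log2 scale (SE 0.69, edgeR adjusted p = 0.0421). Tlr9, the CpG DNA receptor, had 0, 2 and 4 counts in young skins, 12, 16 and 66 in vehicle skins and 7, 1 and 13 in ABT-737 skins. Its vehicle skins also lay above all others, and its log2 fold change was 3.12 (SE 0.91) with an adjusted p of 0.0556 in the same edgeR fit. DESeq2 gave Tlr9 an adjusted p of 0.0149, a fit of the 2 compared groups alone gave 0.0363, and leaving out ABT-737 replicate 4 in edgeR gave 0.0473. Without vehicle replicate 5 the log2 fold change of Tlr9 was 2.28 (0.179) and that of Tlr2 was 1.86.

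Of the 14224 skin genes tested, 11.2% were called in either direction and 5.84% higher in vehicle. The Tlr2 call in skin was lost when any of 6 libraries was left out, with adjusted p-values of 0.137 without vehicle replicate 5, 0.131 without young replicate 2, 0.120 without young replicate 3, 0.110 without young replicate 1, 0.0577 without vehicle replicate 4 and 0.0596 when treated replicate 5 was left out. Neither gene reached the filter's minimum of 4.02 (CPM before TMM scaling) in a young or treated skin, so both had entered the test through the vehicle skins.

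Other receptors in skin had their highest counts in vehicle mice too, but stayed near the floor in young mice. Tlr1 was at 0 in all 3 young skins and had 8, 5 and 39 counts in vehicle skins and 6, 3 and 3 in ABT-737 skins. Tlr8 was likewise at 0 in young skins and had 3, 12 and 18 counts in vehicle skins. Tlr6 was at 0 in young skins and had 3, 4 and 8 counts in vehicle skins. The vehicle and young skins did not overlap for these 3 genes, but the share of all genes without overlap is not given. Without a filter on low counts edgeR called all 3 (adjusted p = 0.00367 for Tlr1, 0.0147 for Tlr8 and 0.0460 for Tlr6), beside 7.95% of 29019 genes called, and no fold is given because the young skins held no count. Tlr13 had 0, 1 and 4 counts in young, 4, 9 and 43 in vehicle and 6, 6 and 6 in ABT-737 skins, where the lowest vehicle skin overlapped the highest young skin. Tlr4 had 1, 0 and 8 counts in young and 3, 17 and 21 in vehicle skins, which overlapped, and gave 1.45 on the log2 scale (SE 0.91) with an adjusted p of 0.295 in the edgeR fit. Tlr7, the receptor for single-stranded RNA, had 0, 0 and 3 counts in young, 2, 7 and 9 in vehicle and 6, 1 and 4 in ABT-737 skins, which overlapped. Tlr5, the flagellin receptor, had 0, 2 and 2 counts in young, 3, 15 and 12 in vehicle and 10, 3 and 8 in ABT-737 skins. A non-coding gene, Gm38079, lies on the same strand inside the skin region counted for Tlr5. It held 47 counts over the skin libraries, at most 15 in 1 library, against 55 for Tlr5. How many reads were counted for both genes is not given, so the Tlr5 counts in skin may include reads of Gm38079.

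In liver no receptor reached the filter, and of the 5583 genes that did, 22.6% were called between vehicle and young mice. Tlr1 was at 0 in all young and all ABT-737 livers and had 0, 7 and 4 counts in vehicle livers. Tlr2 had 0, 3, 2 and 0 counts in young, 1, 1 and 9 in vehicle and 0, 2 and 0 in ABT-737 livers. These were the only receptors above 3 counts in liver, in 2 vehicle libraries for Tlr1 and in 1 for Tlr2. The vehicle liver without Tlr1 counts, replicate 3, was also the shallowest library of the series. In the edgeR fit of liver without a filter, Tlr1 was called higher in vehicle than in young mice (adjusted p = 0.00770), beside 13.6% of 14330 genes called.

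**Figure D3:**
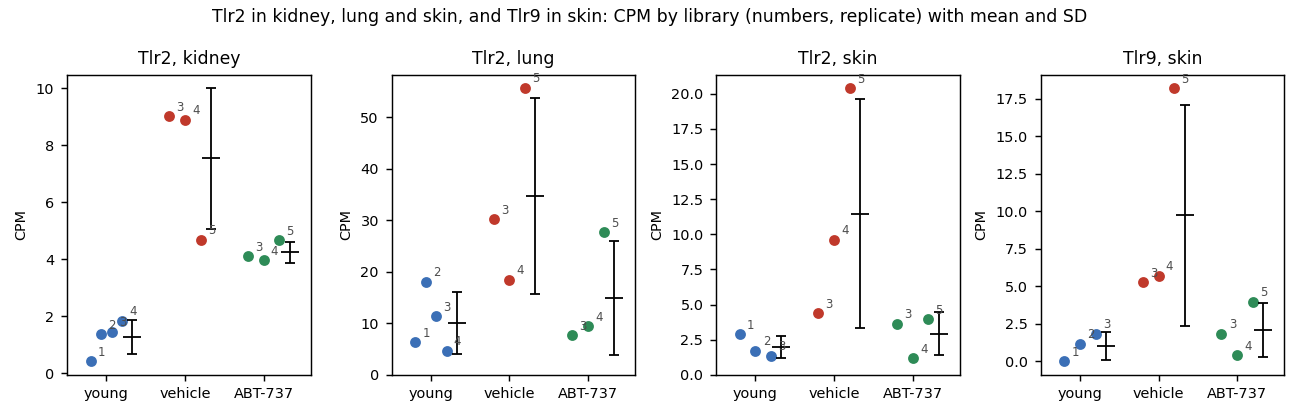
CPM of Tlr2 in kidney, lung and skin and of Tlr9 in skin for each library (points numbered by replicate), with dashes and bars for the mean and SD of each group, on separate linear axes because the skin table counts other regions. In kidney and skin the vehicle libraries lie above all young and ABT-737 libraries, whereas in lung ABT-737 replicate 5, at 27.7 CPM, lies inside the vehicle range.

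No receptor was called between ABT-737 and vehicle mice in any tissue. Among the receptors tested, the treated mice nonetheless had lower means for Tlr2 in kidney and for Tlr1, Tlr2 and Tlr13 in lung. Tlr2, Tlr4 and Tlr9 in skin were lower too, whereas Tlr4 in lung was higher. Under the filter in lung, Tlr5 had 0, 0 and 1 counts in vehicle and 4, 1 and 6 in ABT-737 lungs. Its log2 fold change in the edgeR fit without a filter was 3.36 (adjusted p = 0.162). In that fit Tlr3 (0.397), Tlr6 (0.246) and Tlr7 (0.688) were also higher, and Tlr8 (-0.955) and Tlr9 (-3.31) lower. In kidney the Tlr2 mean was 4.25 ± 0.376 CPM in ABT-737 and 7.54 ± 2.46 CPM in vehicle mice, a log2 fold change of -0.81 (95% interval -1.62 to -0.0066) with an adjusted p of 0.331 in edgeR. Although the kidney groups did not overlap, the highest treated kidney, at 4.67 CPM, lay just under the lowest vehicle kidney, at 4.70 CPM.

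In lung the log2 fold changes of treated against vehicle mice were -1.28 (95% interval -2.68 to 0.12) for Tlr1, -1.15 (-2.34 to 0.030) for Tlr2 and -1.04 (-2.10 to 0.023) for Tlr13, with edgeR adjusted p-values of 0.355, 0.323 and 0.321. Tlr13 did not overlap between the groups, whereas Tlr1 and Tlr2 in treated replicate 5 lay inside the vehicle range. Tlr4 was at 9.83 ± 5.07 CPM in ABT-737 and 8.30 ± 2.59 CPM in vehicle lungs (log2 fold change 0.31, 95% interval -0.72 to 1.35, edgeR adjusted p = 0.782). Leaving out vehicle replicate 5 brought the log2 fold changes to -0.10 for Tlr1, -0.62 for Tlr2 and -0.68 for Tlr13, and leaving out treated replicate 5 to -2.26, -2.05 and -1.22, with Tlr4 at -0.27. None was called in either case.

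In skin the means of Tlr2 were 2.92 ± 1.52 CPM in ABT-737 and 11.5 ± 8.17 CPM in vehicle mice, and those of Tlr9 were 2.06 ± 1.80 and 9.72 ± 7.35 CPM. The vehicle and treated skins did not overlap for either gene, but the share of all genes without overlap is not given. The log2 fold changes of -1.95 (95% interval -3.28 to -0.61) for Tlr2 and -2.20 (-3.90 to -0.50) for Tlr9 had adjusted p-values of 0.476 and 0.519 in edgeR. Without vehicle replicate 5 they were -1.23 (adjusted p = 0.722) and -1.36 (0.749). Tlr4 gave -0.55 (-2.27 to 1.17). With the replicate block in lung the edgeR adjusted p was 0.0566 for Tlr1, 0.0679 for Tlr2 and 0.176 for Tlr13. That block was chosen from these data, and no label says that the mice were paired. At an unadjusted p under 0.05 the edgeR fits held 1 receptor in kidney, 0 in lung and 2 in skin, where 14.8%, 16.1% and 7.97% of all genes tested were under it, and DESeq2 called 0 in each tissue. Of all genes tested, 3.85% of those in liver were called between ABT-737 and vehicle mice, 1.35% of those in kidney and 0% of those in lung and skin.

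Between ABT-737 and young mice 0 of the receptors tested were called by edgeR, while 8.40% of all genes tested were called in liver, 5.17% in skin, 2.55% in lung and 2.12% in kidney. Tlr2 in kidney was higher by 1.67 on the log2 scale (SE 0.45, adjusted p = 0.0628) with groups that did not overlap. Tlr1 in lung gave 2.75 (SE 0.78, adjusted p = 0.0705), also without overlap, and passed the threshold in DESeq2 (0.0199) and in edgeR when any of 4 lung libraries was left out, namely treated replicates 3 (0.04) and 4 (0.04997) and vehicle replicates 4 (0.0447) and 5 (0.0247). It was not called without treated replicate 5, where it was 1.78 on the log2 scale (adjusted p = 0.493), or with the replicate block (0.336). Without that replicate Tlr2 in lung was -0.22, against 0.66 with it, Tlr4 was 0.37 against 0.94 and Tlr13 was 0.70 against 0.87. The edgeR fit without a filter called Tlr1 (0.0218) and Tlr6 (0.0380) in lung, beside 4.57% of 17620 genes. At an unadjusted p under 0.05 the count was 1 receptor in kidney, 1 in lung and 0 in skin (of all genes tested, 16.7% in kidney, 20.5% in lung and 4271 of 14224 in skin), and DESeq2 called 2 receptors in lung, Tlr1 and Tlr6, and 0 in kidney and skin. The comparisons share the young or the vehicle mice, so the values of each are given side by side and not as separate evidence.

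**Figure D4:**
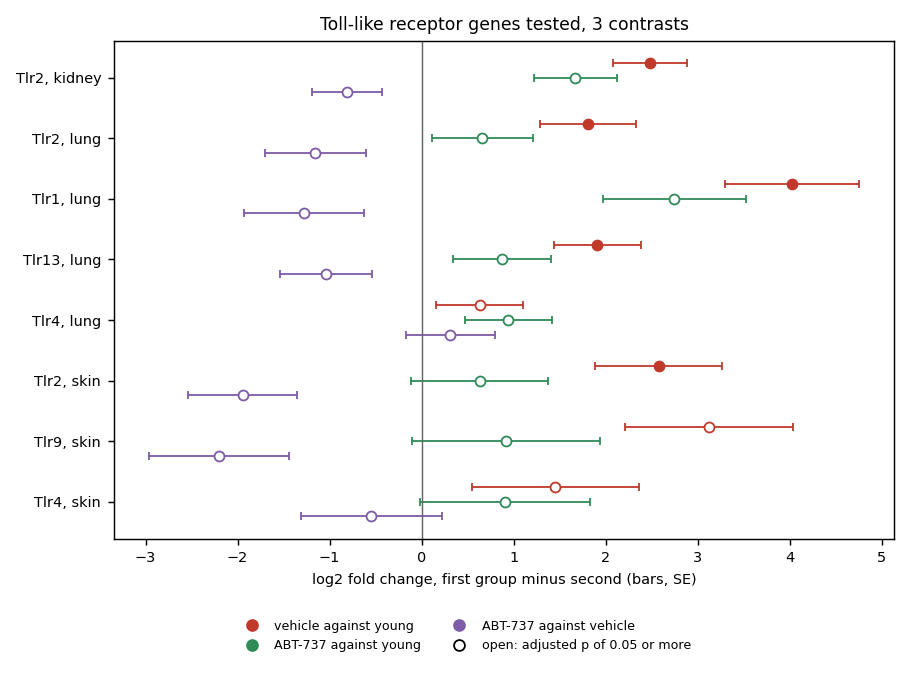
Log2 fold change (first group minus second, bars give the SE) of each receptor tested in kidney, lung and skin for 3 contrasts, with filled points for an adjusted p under 0.05. The filled points are those of Tlr2 in kidney, lung and skin and of Tlr1 and Tlr13 in lung for vehicle against young mice, and the points of ABT-737 against vehicle are open and, apart from Tlr4 in lung, below 0.

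Whether the changes differed between organs was tested for Tlr1, Tlr2, Tlr4 and Tlr13 across the 30 kidney, liver and lung libraries. The increase of Tlr1 from young to vehicle mice was larger in lung than in kidney by 3.12 on the log2 scale (SE 0.98, adjusted p = 0.0454 in edgeR), where 8.04% of 13107 genes were called. For Tlr2 the same difference was -0.63 (95% interval -2.14 to 0.89) and for Tlr13 -0.22 (-1.40 to 0.95), so that no difference between lung and kidney was shown for either. No receptor was called for the difference between kidney and liver (0.786% of genes called) or lung and liver (11.4%), where the liver values rest on 0 to 9 counts. For the response to ABT-737 no receptor was called between kidney and liver (0.0839% of genes), lung and kidney (0%) or lung and liver (0.290%). The Tlr1 difference between lung and kidney fell to 1.92 (adjusted p = 0.2404) without vehicle replicate 5 of lung. In the fits of each organ no young lung or kidney reached the filter's minimum for Tlr1, against 3 vehicle lungs and 1 vehicle kidney. Tlr1 can thus have entered this test through the older lungs, where it is high. The labels do not say whether organs with the same replicate number came from the same mouse.

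Levels in young mice could be set side by side for kidney, liver and lung, which share a table. Tlr2 was at 8.10 ± 4.81 CPM in young lungs (SD, n = 4), 1.14 ± 0.537 CPM in young kidneys and 2.65 ± 3.16 CPM in young livers. The lowest young lung, at 3.76 CPM, lay above the highest young kidney, at 1.63 CPM, but inside the range of the livers, which reached 6.29 CPM on 3 counts. Tlr4 was at 4.23 ± 1.96 CPM in lung, 1.47 ± 0.982 CPM in kidney and 0 in liver, and Tlr13 was at 2.08 ± 1.21, 0.252 ± 0.352 and 1.31 ± 1.52 CPM. Tlr1 was at 1.47 ± 0.724 CPM in lung and 1.80 ± 0.874 CPM in kidney, which overlapped, and at 0 in liver. None of the 10 genes passed the filter in the young libraries alone, so the main edgeR fit gave no test of these levels. DESeq2 and the edgeR fit without a filter both called Tlr2, Tlr4, Tlr8 and Tlr13 between lung and kidney, Tlr4 between lung and liver and Tlr8 between kidney and liver. The last call rests on 0, 0, 1 and 1 counts in young kidneys and 2, 1, 0 and 1 in young livers. The share of all genes called between these organs is not given, so the calls are not read as particular to the receptors.

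Markers of blood cells moved in the same comparisons. In bulk tissue, fewer cells of a type and less RNA per cell cannot be told apart. In kidney all 8 macrophage markers tested of 12 rose from young to vehicle mice, and their sum ran from 219.3 to 298.2 CPM in young, 792.1 to 1365 CPM in vehicle and 325.1 to 547.7 CPM in ABT-737 kidneys, with Clec4f and Vsig4 at 0 in all 3 groups. Under ABT-737, 4 of the 8 fell against vehicle. All 4 T cell and both B cell markers tested in kidney also rose from young to vehicle mice. The B cell sum was uneven, at 125.9 CPM in vehicle replicate 4 against 10.2 and 11.7 CPM in the other vehicle kidneys. It ran from 3.43 to 5.08 CPM in young and from 9.40 to 30.6 CPM in ABT-737 kidneys. Ptprc was at 5.57 to 7.17 CPM in young, 22.4 to 30.5 CPM in vehicle and 10.9 to 11.9 CPM in ABT-737 kidneys. In lung 6 of 10 macrophage markers tested rose, with sums of 1191 to 1539 CPM in young, 3342 to 6966 CPM in vehicle and 1569 to 4177 CPM in treated mice, and none of the 10 was called between treated and vehicle lungs. All 7 T cell markers tested rose in lung, from 33.6 to 60.8 CPM in young to 310.5 to 1077 CPM in vehicle mice. Clec4f, a marker of liver macrophages, was at 0 in the treated lungs.

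In skin all 9 macrophage markers tested rose, with sums of 228.6 to 721.8 CPM in young, 1539 to 3638 CPM in vehicle and 601.7 to 1301 CPM in ABT-737 skins, and Clec4f at 0 in each group. None of these 9 was called between treated and vehicle skins. All 4 T cell markers tested in skin rose, as did Ptprc, Cd209a of 2 dendritic cell markers and Kdr and Pecam1 of 6 endothelial markers, and the 1 neutrophil and the 1 B cell marker tested did not pass the test. In liver all 9 macrophage markers tested rose from 441.5 to 623.5 CPM in young to 2151 to 2458 CPM in vehicle mice, and 8 of the 9 fell under ABT-737, to 366.1 to 675.9 CPM. The libraries highest in Tlr1, Tlr2 and Tlr13 in lung and in Tlr1, Tlr2, Tlr9 and Tlr13 in skin, vehicle replicate 5 in both, were also the vehicle libraries highest in macrophage markers, T cell markers and Ptprc. Other markers went the other way. That lung was the lowest vehicle lung in neutrophil markers (80.05 CPM, against 154.3 and 191.7). It lay below replicate 4 in B cell (442.5 against 791.7 CPM) and dendritic cell markers (251.4 against 342.7 CPM). That skin was the lowest vehicle skin in B cell (8.83 CPM) and dendritic cell markers (28.4 CPM), although the highest in neutrophil markers. The part of these cells in the receptor values was not tested.

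The pathway around the receptors was followed with 55 genes for co-receptors, chaperones, adaptors, kinases, transcription factors, inhibitors and induced products. From young to vehicle mice, lung had the most pathway genes called, with 19 of 43 tested higher and none lower. Kidney had 15 of 39 higher and 2 lower. Liver had 7 of 25 higher and 1 lower, and skin 8 of 42 higher and none lower. Of all genes tested, 8.15% were called higher in lung, 7.75% in kidney and 5.84% in skin. In liver 656 of 5583 genes were called higher and 605 lower, or 22.6% either way. The list's median log2 fold change was 0.82 in lung (0.039 over all genes tested), 0.52 in liver (0.019), 0.51 in skin (0.054) and 0.47 in kidney (0.0062). Single libraries moved these counts. Kidney had 8 calls when vehicle replicate 4 was left out and 11 when replicate 5 was, and liver had 5 when its vehicle replicate 4 was. Lung had 7 calls with vehicle replicate 5 left out, 11 with young replicate 3 left out and 12 with young replicate 1 or 4 left out. Skin had 5 calls with treated replicate 5 left out, 2 with vehicle replicate 5 left out and 0 with young replicate 1 or 2 left out. The replicate block left 7 kidney, 3 liver and 6 lung genes called, beside 3.32%, 5.21% and 2.79% of all genes tested.

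Among the co-receptors, Cd14, which hands lipopolysaccharide to TLR4, rose 2.54-fold in kidney, 2.72-fold in lung and 11.5-fold in skin (edgeR adjusted p = 0.0293, 0.0131 and 0.0226). Ly86, the MD-1 partner of the TLR4-like protein RP105, rose from 15.5 ± 0.723 to 62.1 ± 20.6 CPM in kidney, from 102.3 ± 20.3 to 384.5 ± 134.9 CPM in lung and from 6.53 ± 4.22 to 49.6 ± 21.7 CPM in skin. Cd180, the gene of RP105, was itself at 0 in all kidney groups and in young and vehicle lungs. Ly96, another co-receptor listed, was at 0 in all kidney groups, in young lungs and in young and vehicle skins. Lbp, the lipopolysaccharide binding protein made by liver, rose from 143.9 ± 14.4 to 432.0 ± 114.0 CPM in liver and also in kidney and skin. Cd36, a scavenger receptor that assists TLR2, fell from 87.4 ± 13.2 to 36.6 ± 24.1 CPM in kidney (edgeR adjusted p = 0.0140).

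Of the chaperones, Unc93b1, which carries the endosomal receptors from the endoplasmic reticulum, rose 2.21-fold in kidney and 2.27-fold in lung, and Hsp90b1, the gp96 chaperone needed to fold most Toll-like receptors, rose 1.43-fold in kidney and 2.87-fold in lung. Among transcription factors and kinases, Irf7 rose in all 4 tissues, from 23.2 ± 2.73 to 182.0 ± 74.5 CPM in kidney and from 93.2 ± 18.2 to 520.1 ± 193.4 CPM in liver, and 10.4-fold in skin. Chuk, which encodes the kinase IKK-alpha, fell to 26.4 ± 11.7 CPM from 68.9 ± 18.4 CPM in kidney and to 11.1 ± 9.96 CPM from 43.1 ± 6.16 CPM in liver.

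Among induced products, Ccl4 and Ccl3, chemokines of activated macrophages and lymphocytes, had the largest fold increases of the list in lung. Ccl4 went from 5.27 ± 0.436 to 140.8 ± 111.3 CPM and Ccl3 from 1.57 ± 1.10 to 48.0 ± 46.9 CPM, increases of 26.6-fold and 28.5-fold (edgeR adjusted p = 0.00761 and 0.00643). Of the 10 induced genes listed, all 5 tested in lung were called, as were both tested in kidney and the 1 tested in liver. The others stayed under the filter. Young means of Ccl3 in lung (1.57 CPM) and Ccl4 in kidney (2.39 CPM) lay under the filter's minimums of 5.18 and 4.60. Such genes can enter the test through the older mice where they are high, so the share called is not read as a result. The 1 induced gene tested in skin was not called. Of the inhibitors tested, 3 of 7 were called higher in lung, 2 of 4 in liver, 2 of 6 in kidney and 2 of 8 in skin. Among the adaptors only Myd88 was called, in kidney and lung.

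**Figure D5:**
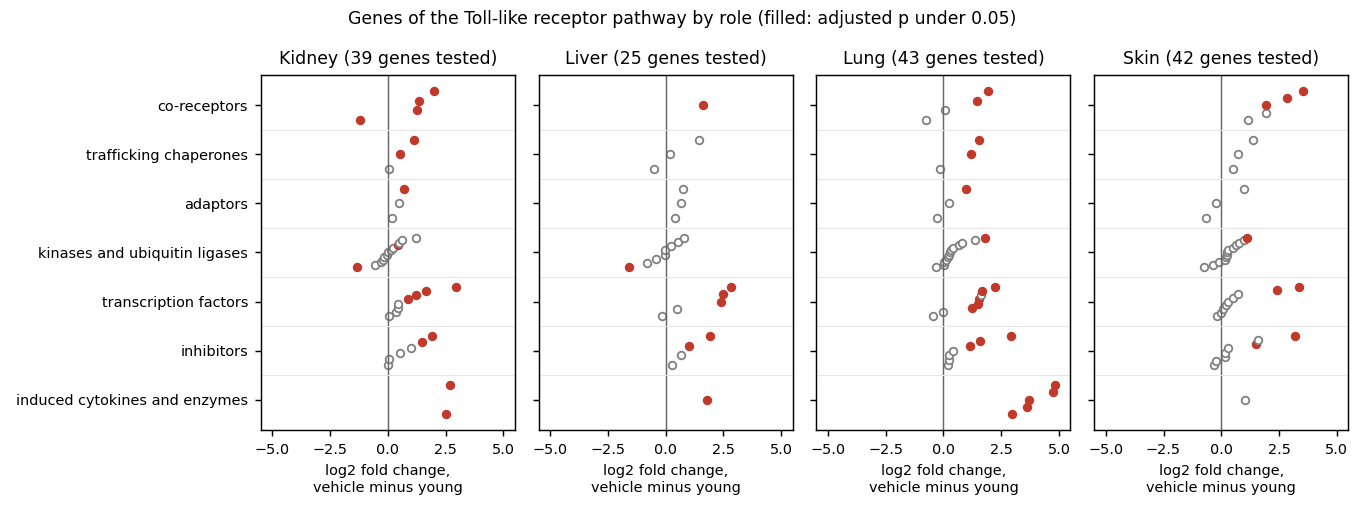
Log2 fold change of vehicle minus young mice for each pathway gene tested, grouped by role on the vertical axis, with 1 panel per tissue and filled points for an adjusted p under 0.05. Filled points lie mostly right of 0, with Cd36 and Chuk in kidney and Chuk in liver on the left, and the induced genes of lung lie farthest to the right, up to 4.83.

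Between ABT-737 and vehicle mice, 3 of 39 pathway genes tested fell in kidney, 2 of 25 fell in liver, and 0 were called in lung and skin by edgeR. Of all genes tested, 1.35% were called in kidney and 3.85% in liver. Irf7 fell to 38.6 ± 11.2 CPM from 182.0 ± 74.5 CPM in kidney (log2 fold change -2.23, edgeR adjusted p = 0.000504) and to 144.6 ± 74.2 CPM from 520.1 ± 193.4 CPM in liver (-1.84, adjusted p = 0.00619). Ly86 and Irf8 also fell in kidney, by 1.22 and 0.85 on the log2 scale, and Lbp fell by 0.97 in liver. The list's median log2 fold change was -0.50 in lung (0.041 over all genes), -0.37 in liver (-0.032), -0.28 in kidney (0.0090) and -0.25 in skin (0.043). At an unadjusted p under 0.05, 14 of 43 pathway genes were found in lung and 15 of 42 in skin, where 16.1% and 7.97% of all genes tested were under it, and DESeq2 called 1 (Irf7) and 0. In lung the replicate block, which was chosen from these data, raised the count from 0 to 12 genes, all lower in treated mice. Over all lung genes the calls went from 0 to 874 (7.31% of 11949) with it. Among the 12 were Irf7, Ly86, Il1b, Tnf, Ccl3 and Ccl4. Leaving out treated replicate 5 of lung gave 5 calls and leaving out treated replicate 4 gave 1. The kidney count fell to 1 without vehicle replicate 4 or ABT-737 replicate 4, and the liver count to 0 without ABT-737 replicate 4 and to 1 without ABT-737 replicate 3 or 5, vehicle replicate 4 or young replicate 2, 3 or 4. With vehicle replicate 3 of liver left out the count was 5. Against young mice 1 of 39 genes was called in the treated kidneys (Irf8) and 1 of 43 in the treated lungs (Hsp90b1). In liver and skin 0 were called, by edgeR and by DESeq2. Of all genes tested, 2.12% were called in kidney, 2.55% in lung, 8.40% in liver and 5.17% in skin. At an unadjusted p under 0.05 were 4 of 25 pathway genes in liver and 9 of 42 in skin. Over all genes tested, 1332 of 5583 in liver and 4271 of 14224 in skin were under it. These counts are therefore not read as particular to the pathway.

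The genes whose levels followed each receptor most closely within a tissue were listed as a description, over 10 libraries in kidney and lung and 9 in skin that also differ by group. In kidney Tlr2 ran closest with Ctss, the protease cathepsin S of antigen-presenting cells (r = 0.97 on the log2 CPM scale), Dnase1l3 (0.96) and C4b (0.96). In lung Tlr1 ran closest with Ubd (0.98), the complement gene C1qa (0.98) and Acp5 (0.98), Tlr2 with Lilra5, Mthfs and M6pr (each 0.97), and Tlr13 with Cd84, Gna15 and the Fc receptor gene Fcgr3 (each 0.94). In skin Tlr9 ran closest with Lce1i (0.99), Hcls1 (0.98) and Nkg7 (0.98), and Tlr2 with B4galt5 (0.98), Lgals9 and Itgb1 (each 0.95). Tlr4 ran closest with Sdccag3 (0.95), Bloc1s5 and Brd8 (each 0.94) in lung, and with C1qtnf7 (0.97), Zcchc6 and Fcna (each 0.95) in skin.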

How the data were processed

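Bulk MARS-seq libraries read the 3′ ends of transcripts, so levels of different genes were not compared. The deposited values are raw counts per gene made by the authors, with bcl2fastq, HISAT 0.1.5, HOMER and mm10 named in the submitters' processing notes. Collapsing of molecule barcodes and use of strand are not given in the sources used here. Each tissue was fitted over its 3 groups with edgeR 4.0.16 in R 4.3.3 (filterByExpr, TMM, glmQLFit, glmQLFTest), and a gene was called at an adjusted p under 0.05. DESeq2 1.42.0 was an alternative, and the scripts were tested on simulated counts. The limit of 3 counts covers counting error only. Overlap between groups, or its absence, describes the libraries shown and is not set against its share over all genes. ABT-737 replicates 4 and 5 carry other compound numbers in 1 label field and were grouped by title. Replicates are mice per the study's figure legends. None of 45 replicate pairs agreed within sampling noise.

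Vehicle and ABT-737 lungs of the same number deviated together (correlations of 0.18 to 0.43 over 3 pairs) and were taken as paired from this check alone. The check does not single out these pairs. Vehicle replicate 4 with ABT-737 replicate 3 gave 0.303, above the 0.296 of the replicates numbered 4. No label says that the mice were paired, so block results in lung depend on this choice. The members, pathway list and markers were chosen with earlier results of these data known. All members are named, and of the pathway list the 2 highest and 2 lowest called genes per comparison and every co-receptor and chaperone called. Other pathway genes (Myd88, Irf8 in kidney, and those of the block result) and the genes closest to a receptor, taken within each tissue because no receptor passed the filter in kidney, liver and lung together, were chosen after their values were seen.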

Additional observations from a re-analysis of the deposited data

Results flagged for a closer look

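The increase of Tlr1 from young to vehicle mice differed between lung and kidney by 3.124 on the log2 scale (SE 0.98, 95% interval 1.14 to 5.11, adjusted p = 0.0454 in the edgeR interaction test). The 3 vehicle lungs lay above the 4 young lungs, whereas the kidney groups overlapped. No young lung or kidney reached the filter's minimum for Tlr1 in the fit of its own organ, so it can have entered this test through the older lungs. The difference was called in 16 of the 30 fits that left out 1 library, with values of 1.92 to 3.53 and adjusted p-values of 0.0113 to 0.2404. It was not called without vehicle replicate 5 of lung (1.92, adjusted p = 0.2404), without any of the 4 young lungs, without any of the vehicle or ABT-737 kidneys, or without young kidney 2, 3 or 4, where apart from the first case the value stayed between 2.79 and 3.47.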

How the results depend on the processing

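No single-gene value reversed its direction among called results. Of 1153 single-gene alternatives, 1113 kept their side of the threshold and their direction where called, 30 lost a call, 10 gained one and 0 reversed, and 27 uncalled values changed sign. Of 656 alternatives for counts, 125 moved by more than 1.5 times. The cause was not tested, except where fewer or more genes or samples entered by construction.

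For the receptors called between vehicle and young mice, requiring at least 10 counts in every library left 0 in kidney, lung and skin (1, 3 and 1 as reported). Without a filter the count was 1 in liver (0) and 5 in skin, and DESeq2 gave 4 in skin and a fit of only the compared groups 2 in skin. With the replicate block 1 was called in lung. Between ABT-737 and young lungs DESeq2 and the unfiltered fit called 2 each (0). Between young organs, where 0 were called, DESeq2 and the unfiltered fit each called 1 for kidney against liver, 4 for lung against kidney and 1 for lung against liver. The share of all genes called in those fits is not given. The difference of effects between lung and kidney gave 0 receptors at 10 or more counts in every library (1).

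For pathway genes, ABT-737 against vehicle gave 1 in kidney with only the compared groups (3), 1 in liver with an absolute log2 fold change over 1 and 1 with only the compared groups, 6 in liver without a filter (2), and in lung 1 by DESeq2, 2 without a filter and 12 with the replicate block (0). ABT-737 against young gave 0 in kidney with an absolute log2 fold change over 1 or the block, 2 by DESeq2 or with only the compared groups and 3 without a filter (1), 1 in liver without a filter and 4 with only the compared groups (0), and in lung 3 by DESeq2, 4 without a filter and 0 with the block (1). Vehicle against young gave 7 in kidney with the block (17), 3 in liver with the block or at 10 counts in every library and 15 without a filter (8), 6 in lung with the block (19), and 4 in skin at 10 counts in every library and 13 without a filter (8).

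When 1 library was left out, receptor calls between vehicle and young ranged from 1 to 4 in lung and 0 to 3 in skin, those between ABT-737 and young lungs from 0 to 1, those between young lung and kidney or young lung and liver from 0 to 1, and the difference of effects between lung and kidney from 0 to 1. Pathway calls ranged from 8 to 19 in kidney, 5 to 12 in liver, 7 to 22 in lung and 0 to 10 in skin for vehicle against young. They ranged from 1 to 4 in kidney, 0 to 5 in liver and 0 to 5 in lung for ABT-737 against vehicle, and from 0 to 2 in kidney, 0 to 4 in liver, 0 to 5 in lung and 0 to 2 in skin for ABT-737 against young. Where an arm was left with 2 libraries, the spread was still pooled over the groups.

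Outside lung the same-numbered libraries did not all deviate together, and in lung a pair of different numbers reached 0.30 as well. Correlations of same-numbered vehicle and ABT-737 libraries ran from -0.21 to 0.020 in kidney, -0.044 to 0.16 in liver and -0.58 to 0.28 in skin. Young and vehicle mice share 2 numbers in kidney, liver and lung and 1 in skin, where no block could be fitted. Depth limited the liver most, where 3 counts stood for up to 13.1 CPM and no receptor could be tested.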
